A study of Rattus norvegicus with 32 samples.

Results

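Female Sprague-Dawley rats received early-life diets that differed in iron and in choline, and the question of this comparison was whether choline shifted hippocampal transcripts by a different amount in iron-deficient than in iron-sufficient rats. The comparison was made on all 16 libraries of sequencing batch II, of 32 libraries in the series, and covered the 14975 genes that passed the expression filter, of 32883 entries in the count table. All 16 rats were 65 days old (postnatal day 65, P65), the labelled tissue was hippocampus, and each diet had 4 libraries. The diets were iron sufficient (IS), iron sufficient with choline supplementation (ISch), iron deficient (ID) and iron deficient with choline supplementation (IDch). The interaction was the choline effect in iron-deficient rats, IDch minus ID, less the choline effect in iron-sufficient rats, ISch minus IS, on a log2 scale. A positive value means that choline moved a gene further up, or less far down, in ID than in IS rats. The study's methods describe a maternal low-iron diet that spanned gestation and the first postnatal week, with choline added to the dam's diet in mid-gestation and an iron-sufficient diet for all offspring later. They describe it for male offspring only, so doses, timing and litters of the females are not stated in the sources used here. Where rats shared a litter, p-values would measure in part the spread within litters.

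Iron is a cofactor of the enzymes that make neurotransmitters, myelin and ATP, and the hippocampus, which forms new memories, is one of the brain regions where its shortage during development has lasting effects. Choline is the precursor of acetylcholine and of phosphatidylcholine, and through betaine it donates methyl groups to the methionine cycle, from which the methyl groups on DNA and histones derive. An interaction between the diets is read as a difference of differences, so 1 gene can have the same interaction because choline raised it in IS rats, because choline lowered it in ID rats, or both. Values of all 4 groups are therefore given for the leading genes. Where an interaction stands alone, it does not tell which of these held.

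The libraries held 18439999 to 26616318 counts (median 21747536.5), and the 3 counts that a count of 0 allows, for counting error only, were 0.113 to 0.163 CPM by library, where CPM are counts rescaled to 1 common library total. Levels below are CPM after scaling by TMM factors, and each gene's values are listed in the order of replicates 1 to 4. Some libraries stood apart. In the library labelled ID replicate 2, the Y-linked genes Eif2s3y and Kdm5d had 297 and 188 counts, and neither had a count in the other 15 libraries labelled female. The X-linked Eif2s3 was at 109 CPM there, against 167 to 196 CPM in the other 15, so this library went against its label. The descriptions number the libraries, and the 4 numbered 16 to 18 were ISch replicate 1 and IDch replicates 1, 2 and 3. On the second dimension of a multidimensional scaling plot these 4 lay at 0.27 to 0.87, while ISch replicates 2, 3 and 4 and IDch replicate 4 lay at -0.55 to -0.31. A term for them, chosen after seeing the data, had an adjusted p under 0.05 for 1403 genes (9.37%), and the diets hold unequal numbers of them: 1 in ISch, 3 in IDch and none without choline. In what follows the term is the one for these 4 libraries, and a gene left the criterion where it no longer met it in the alternative named. The term was also fitted without the library labelled ID replicate 2, and genes that left the criterion in that fit are not listed.

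**Figure D1:**
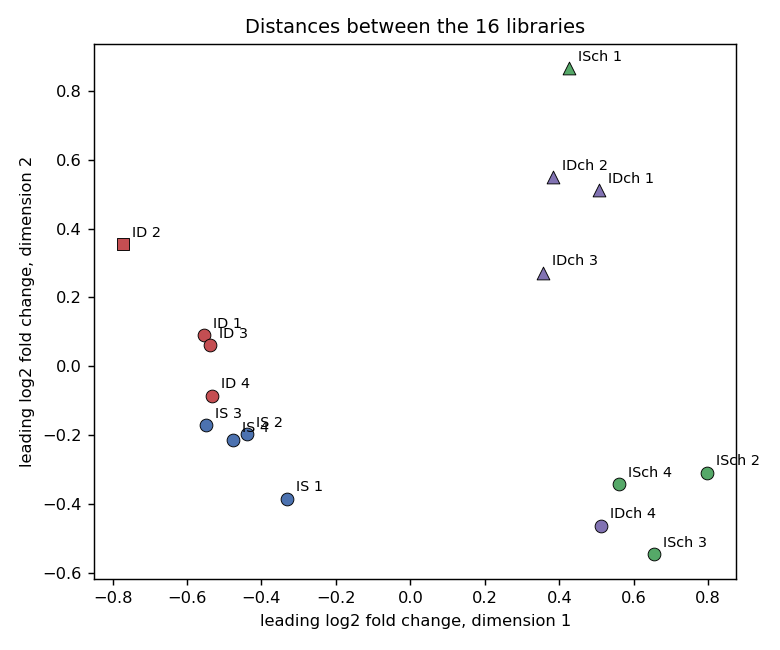
Multidimensional scaling of the 16 libraries by edgeR: each point is a library, each axis a leading log2 fold change, triangles are the libraries numbered 16 to 18 and the square is the library labelled ID replicate 2. The 8 libraries with choline lie on the right, and among them the 4 triangles (0.27 to 0.87 on the vertical axis) are apart from the other 4 (-0.55 to -0.31), which hold 3 ISch libraries and IDch replicate 4.

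By edgeR's quasi-likelihood test, 1 gene of 14975 had an interaction with a Benjamini-Hochberg adjusted p under 0.05 (0.00668%). Before adjustment 1375 genes (9.18%) had a p under 0.05. The study's criterion asks for a log2 difference beyond 0.2 in either direction and a p under 0.05 without adjustment, and 1097 genes (7.33%) met it for the interaction, 474 of them higher (3.17%) and 623 lower (4.16%). Scaled by library size alone, the split turned to 620 higher and 463 lower. Without the library labelled ID replicate 2, 1038 genes met the criterion and 0 passed the adjustment at 0.05, with 1235 at an unadjusted p under 0.05. Of the 1097 genes, 1096 kept their sign and 874 stayed at the criterion without it. With the term for libraries 16 to 18, 1913 genes met the criterion (12.8%), 742 higher (4.95%) and 1171 lower (7.82%), and 9 passed the adjustment. Of the 1097 genes, each kept its sign under that term and 786 stayed at the criterion.

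Each choline effect on its own reached more genes than their difference did. The difference draws on 4 groups and has a larger standard error, for Slc9a4 0.091 against 0.064 for each choline effect. The test therefore detects less at the same size, and the counts do not tell whether interactions are rarer or smaller than choline effects. In ID rats, 1963 genes met the criterion with choline (13.1%), 906 higher (6.05%) and 1057 lower (7.06%), and 569 passed the adjustment at 0.05 (3.8%). In IS rats, 1533 genes met it (10.2%), 778 higher (5.2%) and 755 lower (5.04%), and 396 passed it (2.64%). Without the library labelled ID replicate 2, 213 and 336 genes passed the adjustment in ID and in IS rats. The 2 choline effects share no library, although both contain libraries of the set numbered 16 to 18. Across the 14975 genes their log2 values had a Pearson r of 0.386, and 62.0% of genes had the same sign in both. All 133 genes with an adjusted p under 0.05 in both ID and IS rats moved the same way. Read along the other diet, 791 genes met the criterion for ID against IS without choline (5.28%; 2.41% higher and 2.87% lower), 7 of them with an adjusted p under 0.05 (0.0467%). With choline, 907 genes met it for IDch against ISch (6.06%; 2.44% higher and 3.62% lower), 5 of them with an adjusted p under 0.05 (0.0334%). Among the 1097 interaction genes, whose choice favours effects that differ, choline met the criterion in ID rats alone for 446, in IS rats alone for 283, in both with opposite signs for 24, in both with the same sign for 24 and in neither for 320.

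**Figure D2:**
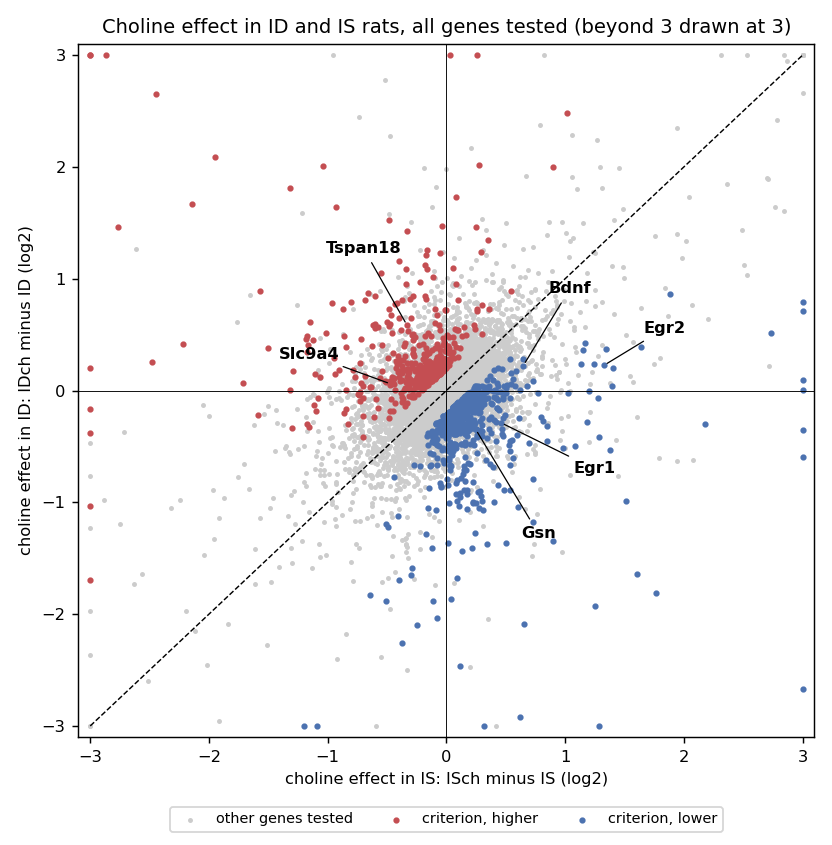
Choline effect in ID rats (vertical, log2) against choline effect in IS rats (horizontal, log2) for the 14975 genes tested, with values beyond 3 drawn at the edge. Red and blue points are the 474 and 623 genes whose interaction met the criterion in the higher and lower direction, and the distance from the dashed line of equal effects is the interaction.

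The 1 gene with an adjusted p under 0.05 was AABR07001512.1 (ENSRNOG00000017412), an entry without a gene name that RefSeq's table did not match. It is named for its test, outside the rule for named genes, after its values were seen. Its normalized CPM was 2.07, 1.24, 1.45 and 1.18 in IS, 0.832, 0.435, 0.689 and 0.593 in ISch, 1.87, 2.09, 1.37 and 1.53 in ID and 0.0392, 0, 0.0887 and 0.0463 in IDch. The IDch libraries held 1, 0, 2 and 1 counts, and the ID libraries held 46, 40, 26 and 38. All 4 IDch libraries lay below every other library, and the ISch libraries lay between them and both groups without choline. The fitted choline effect was -5.18 in ID and -1.200 in IS rats on the log2 scale, where the value in ID depends on the prior count that edgeR adds to such low counts. The interaction was -3.98 (standard error 0.57, adjusted p = 0.0294 by edgeR's quasi-likelihood test). Over 27 alternatives it lay between -4.51 and -3.57, with an adjusted p of 3.49e-06 to 0.172, and without the library labelled ID replicate 2 the adjusted p was 0.0843.

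Among genes with a name, the 15 with the smallest p had adjusted p-values of 0.141 to 0.176 by edgeR's quasi-likelihood test, so each is at the study's criterion and none passes the adjustment. Their sign and their place at the criterion held in all 27 alternatives. Of these genes 3 had a positive interaction. Slc9a4, a sodium/hydrogen exchanger, had CPM values of 72.95, 70.98, 61.9 and 72.2 in IS, 55.6, 47.1, 51.6 and 46.8 in ISch, 49.8, 57.4, 52.9 and 53.9 in ID and 55.4, 58.1, 54.9 and 54.3 in IDch. The IS libraries were the highest and did not overlap the other groups, and ID and IDch overlapped. Its choline effect was -0.47 in IS (adjusted p = 0.00081) and 0.059 in ID rats (adjusted p = 0.658), and the interaction was 0.53 (standard error 0.091, unadjusted p = 2.15e-05). Tspan18, a tetraspanin of the cell membrane, had CPM values of 29.05, 31.3, 32.7 and 31.3 in IS, 27.4, 28.4, 25.2 and 17.9 in ISch, 24.5, 25.3, 25.3 and 20.9 in ID and 42.9, 37.5, 34.6 and 28.4 in IDch. Choline was followed by lower values than any IS library in ISch and by higher values than any ID library in IDch, and the 3 highest IDch libraries were those of the set numbered 16 to 18. The interaction was 0.92 (standard error 0.18, unadjusted p = 8.76e-05). Rps27a (ENSRNOG00000004426), which encodes ubiquitin joined to a ribosomal protein, had CPM values of 189, 164, 186 and 171 in IS, 168, 137, 173 and 158 in ISch, 125, 129.7, 124 and 135 in ID and 182, 167, 157 and 227 in IDch, with an interaction of 0.67 (standard error 0.13, unadjusted p = 9.52e-05). All ID libraries were lower than those of the other groups. A second entry carries this symbol and moved the other way (below), and reads could be shared between such copies, so both values are uncertain.

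Of the 12 genes with a negative interaction, 6 had a choline effect with an adjusted p under 0.05 in ID but not in IS rats. Gsn encodes gelsolin, which severs and caps actin filaments, and had CPM values of 106, 89.6, 104 and 97.2 in IS, 109.5, 131, 111 and 118 in ISch, 136, 158, 163 and 138 in ID and 106, 124, 113 and 124 in IDch. All 4 ID libraries lay above the other 12, and IDch overlapped ISch. The choline effect was -0.35 in ID (adjusted p = 0.0195) and 0.25 in IS rats (adjusted p = 0.107), and the interaction was -0.59 (standard error 0.11, unadjusted p = 4.26e-05). Gsn was also 1 of the 7 genes with an adjusted p under 0.05 for ID against IS without choline, at 0.58 log2 (adjusted p = 0.011). Sema5b, a semaphorin that guides axons, had CPM values of 11.7, 11.7, 11.1 and 9.58 in IS, 10.7, 10.3, 10.3 and 13.7 in ISch, 15.4, 13.02, 15.7 and 14.8 in ID and 8.87, 10.1, 8.603 and 9.401 in IDch, with an interaction of -0.70 (standard error 0.15, unadjusted p = 0.000183). Clip2, a linker protein of microtubules, had CPM values of 196, 191, 188 and 189.97 in IS, 199, 198, 193 and 199.6 in ISch, 211, 223, 219.6 and 214 in ID and 185, 186, 199 and 183 in IDch, with an interaction of -0.25 (standard error 0.051, unadjusted p = 0.000126). In both genes every ID library was above all IDch libraries. Zdhhc8, a palmitoyltransferase, had CPM values of 58.8, 60.5, 59.02 and 65.8 in IS, 62.6, 66.5, 63.4 and 66.1 in ISch, 66.05, 65.3, 66.8 and 72.2 in ID and 52.9, 56.1, 55.6 and 58.5 in IDch, with an interaction of -0.36 (standard error 0.069, unadjusted p = 7.37e-05). Dab2ip, a Ras GTPase-activating protein that overlaps another RefSeq gene, had CPM values of 110.03, 109, 102 and 111 in IS, 113, 108, 108 and 109 in ISch, 114, 118, 119 and 114 in ID and 97.6, 98.8, 102 and 95.4 in IDch, with an interaction of -0.26 (standard error 0.054, unadjusted p = 0.000179). In Zdhhc8 and Dab2ip the IDch libraries lay below all 12 others, except that IDch replicate 3 of Dab2ip was just above IS replicate 3. Tbr1, a transcription factor that specifies glutamatergic neurons of the forebrain, had CPM values of 16.5, 15.8, 15.98 and 15.8 in IS, 15.7, 18.5, 18.2 and 22.3 in ISch, 21.4, 18.5, 18.8 and 22.5 in ID and 16.2, 15.3, 14.01 and 14.3 in IDch, with an interaction of -0.66 (standard error 0.13, unadjusted p = 0.000106). The IDch libraries were below those of ID, and ISch overlapped IS. For these 6 genes the choline effect in ID rats had an adjusted p of 0.00222 to 0.0195, and that in IS rats one of 0.107 to 0.942.

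In the other 6 the choline effect had an adjusted p under 0.05 in IS but not in ID rats, and 1 of them, Egr1, is described with the other immediate early genes. Cic encodes capicua, a transcriptional repressor, and had CPM values of 174, 171, 160.2 and 171 in IS, 194, 193, 188 and 196 in ISch, 185, 169, 182 and 189 in ID and 165, 166, 176 and 164 in IDch, with an interaction of -0.30 (standard error 0.058, unadjusted p = 7.88e-05). Adra2c, the alpha-2C adrenergic receptor, had CPM values of 16.8, 17.3, 18.6 and 18.1 in IS, 26.3, 26.8, 20.8 and 24.6 in ISch, 22.9, 20.03, 23.7 and 23.5 in ID and 21.7, 21.3, 20.98 and 22.7 in IDch, with an interaction of -0.53 (standard error 0.11, unadjusted p = 0.000129). Mef2d, a transcription factor that neuronal activity regulates, had CPM values of 101, 98.1, 89.5 and 97.3 in IS, 114, 109, 111 and 114 in ISch, 112, 105, 102 and 103 in ID and 97.8, 103, 98.98 and 91.4 in IDch, with an interaction of -0.33 (standard error 0.067, unadjusted p = 0.000132). In these genes all ISch libraries lay above all IS libraries. Phf24, which encodes a PHD finger protein, had CPM values of 60.6, 65.7, 58.1 and 69.2 in IS, 81.5, 72.6, 74.2 and 78.8 in ISch, 76.8, 72.8, 66.03 and 71.8 in ID and 64.6, 69.2, 66.4 and 63.6 in IDch, with an interaction of -0.40 (standard error 0.085, unadjusted p = 0.000203). Cyp2s1, a cytochrome P450 that overlaps another RefSeq gene, had CPM values of 3.99, 3.17, 3.43 and 4.75 in IS, 5.24, 9.63, 6.73 and 6.03 in ISch, 6.33, 7.63, 7.16 and 7.13 in ID and 6.91, 4.85, 5.01 and 5.88 in IDch, with an interaction of -1.16 (standard error 0.25, unadjusted p = 0.000213). The ISch libraries of both again did not overlap those of IS. Their ID and IDch libraries overlapped. For the groups ID and IDch, 11.8% of all genes tested had libraries that did not overlap, and for IS and ISch 9.97%.

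**Figure D3:**
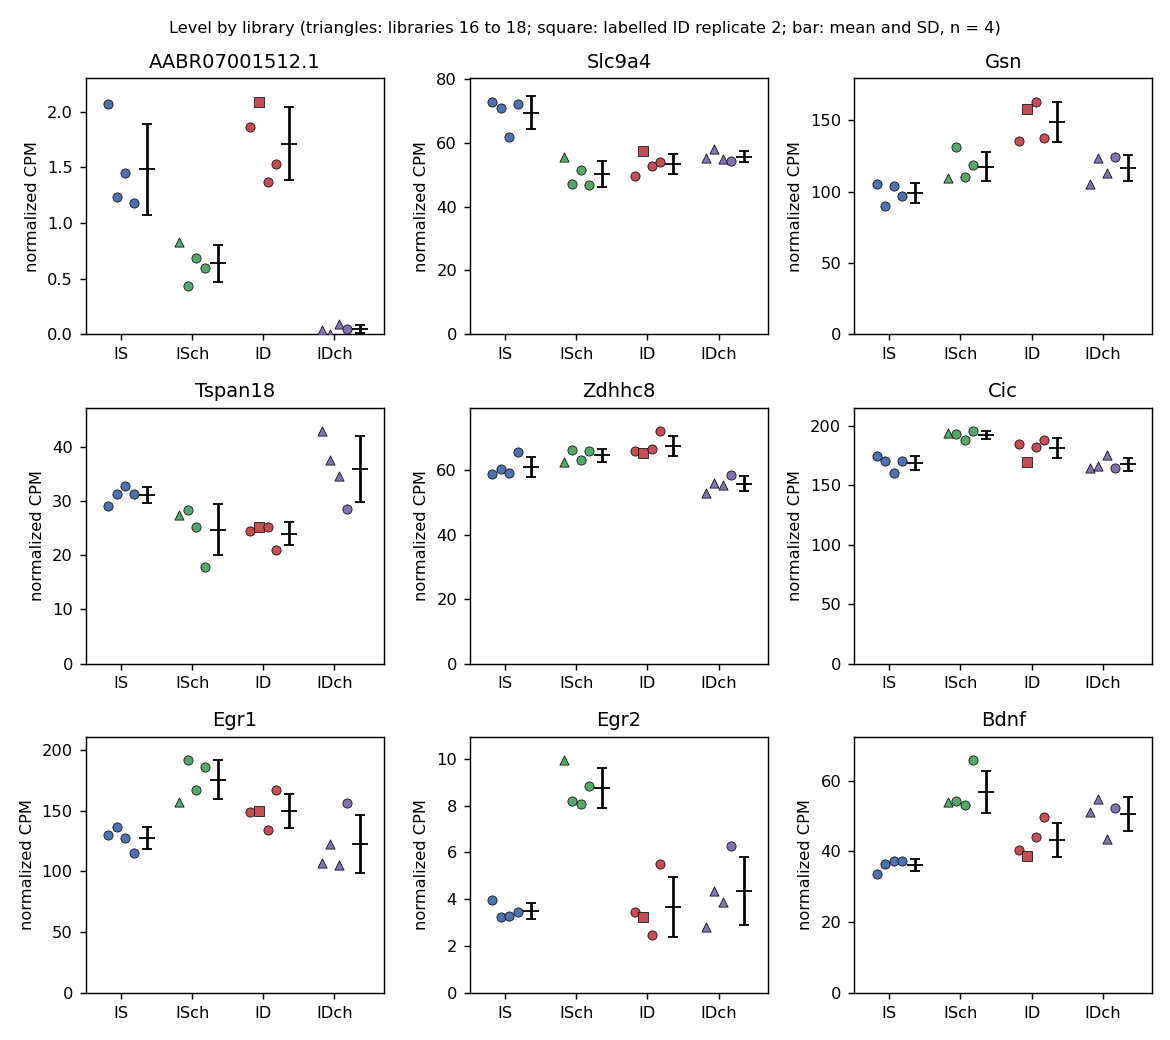
Normalized CPM of 9 genes in each of the 16 libraries, grouped by diet, with the mean and SD of 4 libraries as a black bar, triangles for the libraries numbered 16 to 18 and a square for the library labelled ID replicate 2. The IDch libraries of AABR07001512.1 lie at 0 to 0.0887, the ISch libraries of Egr2 lie above all 12 others, and the ID libraries of Gsn lie above all others.

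Immediate early genes were the list with the most members at the criterion. These genes are transcribed within minutes of neuronal activity, and many encode transcription factors. All 25 genes of the list were tested, 10 were lower at the criterion and none higher, against 4.16% of all genes lower. The interaction was negative for 23, with a median of -0.35 log2 against 0.000765 over all genes. The median choline effect was 0.25 in IS and -0.15 in ID rats. The summed CPM of the list was 1048 to 1184 in ID and 938 to 1225 in IDch. Within IDch the mean of libraries 16 to 18 was 963, against 1225 in replicate 4, which lay above every ID library. In ISch the library of that set was at 1175, against a mean of 1292 in the others. No member had an adjusted p under 0.05. With 1 library left out at a time, 9 to 14 members were lower, most without IDch replicate 4, where 792 of 15118 genes were lower. Without that library IDch holds only libraries of the set numbered 16 to 18, so diet and set cannot be told apart within IDch there. Without the library labelled ID replicate 2 there were 11. With the term for libraries 16 to 18 there were 8, where 7.82% of all genes were lower. Without those 4 libraries, which leaves 1 library in IDch, the median was -0.31. Both other scalings gave 10 lower members. Promoters of such genes are known for elements that bind CREB (TGACGTCA or its core TGACG) or serum response factor (the CArG box), and the bases upstream of 3 members lower at the criterion are shown for these elements. They are RefSeq sequence of assembly GRCr8, which is not the build of the counts, and run 5′ to 3′ over the 250 bases before the annotated start, with CArG boxes and TGACG on either strand in capitals, where TGACG of the opposite strand reads CGTCA. Egr2 is at chr20:21054442-21054691, minus strand, Egr4 at chr4:119607818-119608067, minus strand and Jund at chr16:18769772-18770021, minus strand.
Egr2: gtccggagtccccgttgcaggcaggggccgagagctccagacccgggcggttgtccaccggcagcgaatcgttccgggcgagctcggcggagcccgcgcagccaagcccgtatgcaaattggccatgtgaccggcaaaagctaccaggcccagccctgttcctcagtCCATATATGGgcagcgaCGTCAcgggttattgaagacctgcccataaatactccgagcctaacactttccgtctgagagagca
Egr4: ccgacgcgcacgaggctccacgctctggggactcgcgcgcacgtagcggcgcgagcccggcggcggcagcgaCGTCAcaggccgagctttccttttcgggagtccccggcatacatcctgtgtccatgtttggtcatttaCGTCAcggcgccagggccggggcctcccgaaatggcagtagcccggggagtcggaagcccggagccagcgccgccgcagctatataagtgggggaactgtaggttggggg
Jund: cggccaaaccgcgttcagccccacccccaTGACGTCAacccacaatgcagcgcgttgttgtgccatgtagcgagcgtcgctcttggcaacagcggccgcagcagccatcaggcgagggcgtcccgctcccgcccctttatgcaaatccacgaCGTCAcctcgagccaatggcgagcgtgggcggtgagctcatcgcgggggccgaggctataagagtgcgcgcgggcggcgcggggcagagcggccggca

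Egr2 held a CArG box and 1 TGACG, Egr4 held 2 TGACG, and Jund held 3 TGACG matches, of which 2 are the overlapping strands of 1 TGACGTCA. Promoters of 20 members were matched, and TGACG on either strand was found in 12 of them (60%), against 18.2% of 33469 promoters and 26% of the 12061 promoters of genes tested. TGACGTCA, which contains TGACG, was found in 4 of the 20 (20%), against 1.59% and 2.64%. The CArG box was found in 3 (15%), against 1.5% and 1.19%. Of the 8 matched members lower at the criterion, 6 held TGACG (75%), 1 held TGACGTCA and 2 held a CArG box. A match is a match of letters, and binding was not measured here.

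The Egr family, zinc finger transcription factors, had all 4 members at the criterion. Egr1 had CPM values of 129.99, 137, 128 and 115 in IS, 157, 191, 167 and 186 in ISch, 149, 149.5, 134 and 167 in ID and 107, 122, 106 and 156 in IDch. ISch lay above every IS library, while in IDch 3 libraries were below all ID libraries and replicate 4 was not. Those 3 were of the set numbered 16 to 18, for which the term of Egr1 was -0.35 log2. The choline effect was 0.46 in IS (adjusted p = 0.0279) and -0.29 in ID rats (adjusted p = 0.136), and the interaction was -0.75 (standard error 0.15, unadjusted p = 0.000111). Egr2 had CPM values of 3.99, 3.25, 3.301 and 3.44 in IS, 9.94, 8.21, 8.06 and 8.84 in ISch, 3.45, 3.24, 2.47 and 5.52 in ID and 2.83, 4.36, 3.902 and 6.298 in IDch. Every ISch library was above every library of the other groups, and ID and IDch overlapped. Its choline effect was 1.33 in IS (adjusted p = 0.00473) and 0.23 in ID rats (adjusted p = 0.622), and the interaction was -1.102 (standard error 0.32, unadjusted p = 0.00293). Without libraries 16 to 18 the interaction of Egr2 was -0.49 (unadjusted p = 0.185). Egr3 had CPM values of 68.7, 65.96, 60.4 and 72.5 in IS, 76.1, 85.6, 76.5 and 80.9 in ISch, 66.98, 69.8, 79.8 and 73.98 in ID and 61.9, 68.2, 71.4 and 63.6 in IDch, with an interaction of -0.39 (standard error 0.094, unadjusted p = 0.000773), and ISch again lay above IS. Egr4 had CPM values of 5.51, 7.88, 5.46 and 7.14 in IS, 9.45, 11.3, 7.16 and 12 in ISch, 7.06, 7.22, 9.58 and 9.95 in ID and 5.97, 6.54, 6.92 and 9.22 in IDch, with an interaction of -0.86 (standard error 0.26, unadjusted p = 0.00385), and its groups overlapped. Egr4 left the criterion without the 4 libraries numbered 16 to 18 together.

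Of the Nr4a orphan nuclear receptors, Nr4a2 and Nr4a3 were at the criterion and Nr4a1 was not. Nr4a2 had CPM values of 43.2, 51.6, 49.9 and 45.6 in IS, 58.2, 72.8, 56.9 and 81.9 in ISch, 57.7, 55.4, 46.97 and 57.8 in ID and 53.7, 60.1, 43.1 and 65.3 in IDch, with an interaction of -0.48 (standard error 0.18, unadjusted p = 0.0151), and ISch lay above IS. With the term for libraries 16 to 18 it left the criterion (unadjusted p = 0.0621). Nr4a3 had CPM values of 72.6, 72.1, 65.5 and 74.2 in IS, 100.4, 84.7, 72.2 and 90.4 in ISch, 79.96, 80.7, 80.5 and 100.3 in ID and 77.04, 87.3, 77.1 and 66.6 in IDch, with an interaction of -0.44 (standard error 0.14, unadjusted p = 0.00543). Nr4a1 had 56.99 ± 5.86 CPM in IS, 77.5 ± 10.3 in ISch, 47.4 ± 2.57 in ID and 51.1 ± 20.5 in IDch (SD, n = 4 each), with an interaction of -0.34 (unadjusted p = 0.199).

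Among the Fos and Jun genes, whose products form the AP-1 factor, Junb and Jund met the criterion. Junb had CPM values of 32.1, 27.1, 29.9 and 27.4 in IS, 35.4, 39.98, 30.1 and 45.4 in ISch, 33.4, 30.4, 44.97 and 40.6 in ID and 24.2, 27.9, 28.6 and 46.3 in IDch, with an interaction of -0.61 (standard error 0.24, unadjusted p = 0.0218), and left the criterion without ISch replicate 4, ID replicate 3 or IDch replicate 1, with the term, or without the 4 libraries numbered 16 to 18. Jund had CPM values of 45.2, 38.6, 39.97 and 42.01 in IS, 48.1, 47.3, 39.03 and 45.7 in ISch, 49.05, 51.6, 63.6 and 55.5 in ID and 37.9, 46.6, 43.9 and 51.04 in IDch, with an interaction of -0.41 (standard error 0.13, unadjusted p = 0.00627). The IS libraries of Jund lay below all ID libraries, ISch overlapped IS, and IDch overlapped both. Jund left the criterion without the 4 libraries numbered 16 to 18 together. Fos had CPM values of 9.04, 11.2, 23.9 and 10.7 in IS, 13.5, 11.6, 14.3 and 14.6 in ISch, 19.1, 32.7, 14.2 and 18.01 in ID and 9.42, 11.3, 15.3 and 16.2 in IDch, an interaction of -0.66 (standard error 0.40, unadjusted p = 0.113) and its highest value in the library labelled ID replicate 2, and without that library the interaction was -0.37 (unadjusted p = 0.3202). Fosb had an interaction of -0.24 (unadjusted p = 0.631), Fosl2 -0.32 (unadjusted p = 0.234) and Jun -0.064 (unadjusted p = 0.607).

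The other 2 members at the criterion were Homer1, a scaffold of metabotropic glutamate receptors, and Ier5. Homer1 had CPM values of 58.3, 58.6, 50.8 and 60.03 in IS, 66.1, 65.8, 58.6 and 63.8 in ISch, 61.3, 61.97, 60.03 and 77.3 in ID and 60.7, 67.1, 51 and 50.2 in IDch, with an interaction of -0.35 (standard error 0.13, unadjusted p = 0.0193), and left the criterion without ID replicate 4. Ier5 had CPM values of 31.3, 26.5, 28.04 and 26.5 in IS, 31.7, 45.1, 30.7 and 46.5 in ISch, 33.6, 28.7, 33.3 and 36.1 in ID and 31.6, 32.5, 28.7 and 37.9 in IDch, with an interaction of -0.47 (standard error 0.18, unadjusted p = 0.0163). The groups of both overlapped, and Ier5 left the criterion with the term (unadjusted p = 0.0744). Npas4, an activity-dependent transcription factor of neurons, had an interaction of -0.76 (unadjusted p = 0.0531) and Arc, which acts at synapses, -0.33 (unadjusted p = 0.242). Dusp5, a phosphatase of MAP kinases, and Btg2 had the positive values, 0.29 (unadjusted p = 0.194) and 0.22 (unadjusted p = 0.275). Arc and Nr4a1 were also lower in libraries 16 to 18, by a term of -0.70 and -0.68 log2, and with that term their interactions were -0.019 and -0.053.

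**Figure D4:**
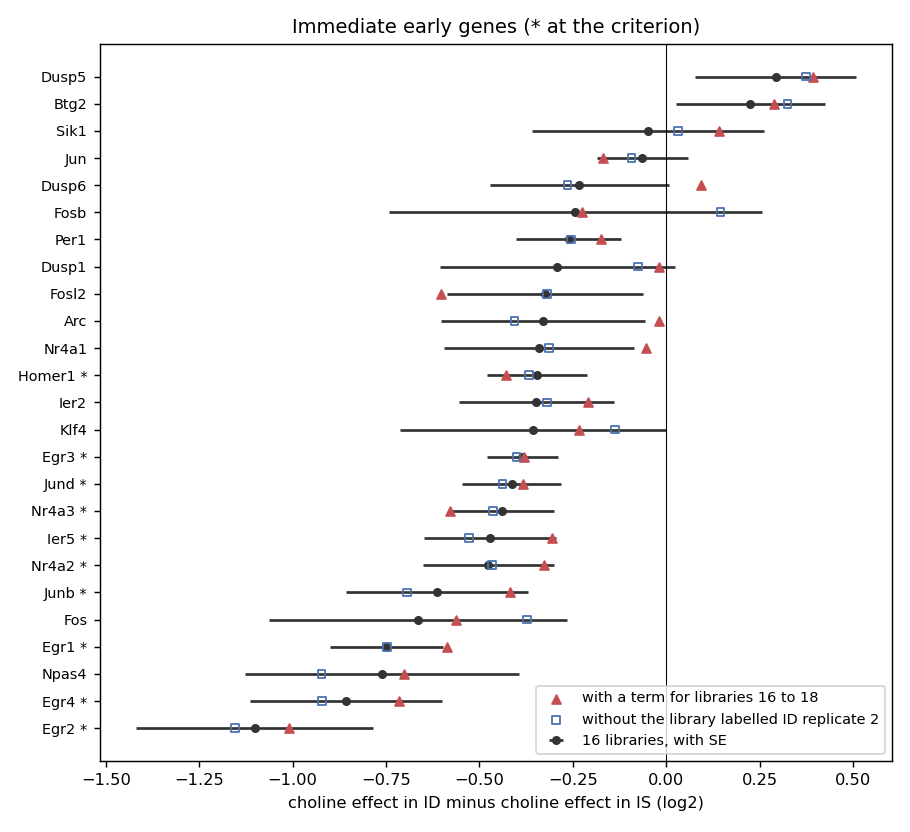
Interaction (log2, horizontal) of the 25 immediate early genes: points and bars are the fit of 16 libraries with its standard error, triangles the fit with a term for libraries 16 to 18, and squares the fit without the library labelled ID replicate 2. In the fit of 16 libraries 23 genes lie left of 0, and the 10 with an asterisk met the criterion.

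Of 29 potassium channel genes tested, which set the resting potential and the shape of the action potential, 6 were lower at the criterion and none higher, beside 4.16% and 3.17% of all genes, with a median of -0.09. The count was 3 without ID replicate 4 and 12 with the term for libraries 16 to 18, where 7.82% of all genes were lower with the term. Kcnj9, a G protein-gated inward rectifier subunit that overlaps Igsf8, had CPM values of 62.9, 66.5, 65.3 and 62.7 in IS, 77.9, 75.1, 70.6 and 87.96 in ISch, 73.9, 73.3, 76.03 and 84.8 in ID and 66.1, 67.5, 64.2 and 77.2 in IDch, with an interaction of -0.44 (standard error 0.098, unadjusted p = 0.000326). In Kcnj9 ISch lay above IS, and Kcnj9 left the criterion without the 4 libraries numbered 16 to 18 together. Kcnj3, Kcnh7, Kcnc4 and Kcnj4 were also lower, with interactions of -0.24, -0.53, -0.22 and -0.30.

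The counts of the next lists stand beside 4.16% lower and 3.17% higher of all genes, and 7.82% and 4.95% with the term. Of 9 neurotrophin genes tested, 2 were lower and none higher. Bdnf, the growth factor that strengthens synapses, had CPM values of 33.6, 36.5, 37.2 and 37.4 in IS, 53.9, 54.1, 53.2 and 65.7 in ISch, 40.4, 38.6, 44.2 and 49.6 in ID and 51.3, 54.7, 43.6 and 52.3 in IDch. All ISch libraries were above all IS libraries and ID overlapped IDch, with a choline effect of 0.65 in IS (adjusted p = 0.000727) and 0.22 in ID rats (adjusted p = 0.157). The interaction of Bdnf was -0.42 (standard error 0.12, unadjusted p = 0.00307), and that of Vgf, a secreted peptide precursor, -0.43 (standard error 0.14, unadjusted p = 0.00773). Of 13 GABA-A receptor subunits 1 was higher, Gabra5 at 0.30 (unadjusted p = 0.0224), and 2 were lower, Gabrb2 at -0.40 (unadjusted p = 0.0232) among them. Gabra5 left the criterion without IDch replicate 2, with the term, or without the 4 libraries numbered 16 to 18, and with the term no subunit was higher. The count of lower subunits was 1 without IS replicate 3 or ISch replicate 1 and 4 with the term. None of 15 ionotropic glutamate receptor subunits met the criterion (median -0.11), and with the term 4 were lower. Of 21 synaptic vesicle genes, the calcium sensors Syt5 at 0.32 (unadjusted p = 0.003196) and Syt7 at -0.34 (unadjusted p = 0.00353) met it, and the lower count was 5 with the term. The list median was -0.041, and -0.19 without the 4 libraries numbered 16 to 18. Of 14 neuropeptide genes 2 were lower, Adcyap1 at -0.48 (unadjusted p = 0.0456) and Cck at -0.30 (unadjusted p = 0.0461). Adcyap1 left the criterion without IS replicates 1, 2 or 4, ISch replicates 1, 2 or 4, ID replicates 2, 3 or 4 or IDch replicates 1, 2 or 3, with the term, or with library size alone. Cck left it without IS replicates 2, 3 or 4, ISch replicates 1 or 4, ID replicates 1 or 3 or IDch replicates 1 or 3, with the term, with library size alone, or with the replicate number as a block. The list had 5 lower members without IDch replicate 4, a fit in which IDch holds only libraries of the set numbered 16 to 18. Bdnf, Vgf, Syt5 and Syt7 kept the criterion in all 27 alternatives.

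The lists closest to the diets themselves held few interactions. None of 20 iron homeostasis genes, 21 genes of heme and iron-sulfur cluster synthesis, 19 genes of choline and phosphatidylcholine metabolism or 18 genes of the methionine and folate cycle met the criterion, where 7.33% of all genes did. Their medians were 0.014, 0.056, 0.047 and 0.051. With the term, 2 iron homeostasis genes were lower and 2 choline genes higher, beside 7.82% lower and 4.95% higher of all genes. Tfrc, the transferrin receptor that takes up iron, had 135 ± 8.12 CPM in IS, 154 ± 12.9 in ISch, 153 ± 4.65 in ID and 172 ± 13.2 in IDch (SD, n = 4 each). Its interaction was -0.012 (standard error 0.09, unadjusted p = 0.898), a sign that turned with library size alone. Fth1, the ferritin heavy chain that stores iron, had an interaction of -0.06 (standard error 0.11, unadjusted p = 0.579), Slc5a7, the choline transporter of cholinergic neurons, 0.44 (standard error 0.50, unadjusted p = 0.391), and Pemt, which makes phosphatidylcholine by methylation, -0.19 (standard error 0.20, unadjusted p = 0.3602). The sign of Fth1 and of Slc5a7 turned with the term for libraries 16 to 18. Of 14 cholinergic genes 2 were lower, the muscarinic receptor Chrm3 at -0.21 (unadjusted p = 0.0284) and the nicotinic subunit Chrna5 at -0.72 (unadjusted p = 0.03798). Chrm3 left the criterion without IS replicate 3, ISch replicates 3 or 4 or IDch replicate 4, or with library size alone. Chrna5 left it without IS replicates 1 or 3, ISch replicate 4, ID replicates 1, 2 or 4 or IDch replicates 1 or 3, with the term, without the 4 libraries numbered 16 to 18, or with limma and voom. With the term 4 cholinergic genes were lower.

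None of 17 DNA methylation genes met the criterion (median 0.002895), and 3 were lower with the term, where 7.82% of all genes were lower. Of 31 histone lysine methylation genes 3 were lower and none higher. They were Ehmt2, an H3K9 methyltransferase, at -0.22 (unadjusted p = 0.00892), Setd1b, an H3K4 methyltransferase, at -0.31 (unadjusted p = 0.0168), and Kdm6b, an H3K27 demethylase, at -0.24 (unadjusted p = 0.03703). They stand beside 4.16% lower of all genes. Ehmt2 left the criterion without IS replicate 2, ISch replicate 2 or ID replicate 3, with the term, without the 4 libraries numbered 16 to 18, or with library size alone, and the count was 1 without IS replicate 2 or ID replicate 3. Of 59 nuclear respiratory chain genes 2 were higher, Cox6b1 at 0.30 (unadjusted p = 0.0108) and Uqcrb at 0.21 (unadjusted p = 0.0215), beside 3.17% higher of all genes. The count was 5 with the term, beside 4.95% higher of all genes. The list median was 0.059, and 0.18 without the 4 libraries numbered 16 to 18. Cox6b1 kept the criterion in all 27 alternatives. Uqcrb left it without IS replicate 3, ISch replicate 3, ID replicates 2 or 3 or IDch replicate 4, with DESeq2, or with limma and voom. Of 13 mitochondrially encoded genes 2 were lower, Mt-nd4l at -0.46 (unadjusted p = 0.00885) and Mt-nd4 at -0.89 (unadjusted p = 0.0341). Mt-nd4 left the criterion without IS replicates 2 or 4, ISch replicates 1, 3 or 4, ID replicates 1, 2 or 3 or IDch replicates 2 or 3, with the term, without the 4 libraries numbered 16 to 18, or with DESeq2. Of 72 ribosomal protein entries 3 were higher and 1 lower. The count of higher entries rose to 9 with the term. The list median was 0.049, and 0.23 without the 4 libraries numbered 16 to 18. Of 22 heat shock and chaperone genes, Creld2 at 0.41 (unadjusted p = 0.0363) and Hspb8 at 0.35 (unadjusted p = 0.0468) were higher. Creld2, which overlaps Alg12, left the criterion without IS replicates 1 or 3, ISch replicates 1, 3 or 4, ID replicates 3 or 4 or IDch replicates 1 or 4, and Hspb8 without IS replicates 1, 2, 3 or 4, ISch replicates 1 or 4, ID replicates 1, 2 or 4 or IDch replicates 1 or 4. Both left it with the replicate number as a block, and Hspb8 also with limma and voom.

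Single members met the criterion in 5 further lists, where 7.33% of all genes met it, 4.16% lower and 3.17% higher. With the term these shares were 12.8%, 7.82% and 4.95%. A single member in lists of this size is near the share of all genes, so these counts do not set the lists apart. Of 19 circadian clock genes the single member was Per2 at -0.31 (unadjusted p = 0.00195), which kept the criterion in all 27 alternatives. With the term 1 clock gene was higher and 2 were lower. Of 18 splicing kinases and SR proteins it was Clk1 at 0.45 (unadjusted p = 0.0444), and with the term 5 were higher. Clk1 left the criterion without IS replicates 1, 2, 3 or 4, ISch replicates 1 or 4, ID replicates 3 or 4 or IDch replicates 3 or 4, or with the replicate number as a block. Of 17 stress hormone targets it was Tsc22d3 at 0.34 (unadjusted p = 0.0421), and with the term 3 were higher. Tsc22d3 left the criterion without IS replicates 1 or 4, ISch replicates 1, 2 or 4, ID replicate 4 or IDch replicates 1 or 4, without the 4 libraries numbered 16 to 18, or with the replicate number as a block. Of 22 clustered protocadherins it was Pcdhb4 at -0.61 (unadjusted p = 0.038), which left it without IS replicates 2 or 3, ISch replicates 1, 2 or 3, ID replicates 1, 2 or 4 or IDch replicates 1 or 3, or without the 4 libraries numbered 16 to 18. Of 23 interferon response genes it was the histocompatibility gene RT1-A2, which had CPM values of 4.14, 3.59, 4.97 and 4.03 in IS, 3.96, 16.8, 15.6 and 15.8 in ISch, 9.82, 13.1, 8.74 and 8.58 in ID and 10.2, 11.9, 12.8 and 17.97 in IDch. Its ISch replicate 1 lay with IS while the other 3 ISch libraries did not, and its interaction was -1.24 (unadjusted p = 0.0111) and -0.50 with the term (unadjusted p = 0.128). Copies of such genes are near-identical, so their counts are uncertain. Of 21 BMP signalling genes 2 were lower, the ligand Bmp7 at -0.90 (unadjusted p = 0.00383) and the receptor Acvr1 at -0.22 (unadjusted p = 0.00511). Both left the criterion without the 4 libraries numbered 16 to 18 together. Acvr1 also left it without ID replicate 1 or IDch replicates 1 or 2, with the term, or with library size alone. None of 10 sex steroid and hormone receptors met the criterion.

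Defining markers of hippocampal cells were well above 0 in all groups. Slc17a7, the vesicular glutamate transporter of excitatory neurons, had 2381 ± 81.3 CPM in IS, 2258 ± 46.3 in ISch, 2366 ± 58.4 in ID and 2327 ± 136 in IDch (SD, n = 4 each). The interaction was 0.053 (standard error 0.057, unadjusted p = 0.3696) for Slc17a7, 0.15 (standard error 0.10, unadjusted p = 0.159) for the astrocyte marker Gfap and -0.053 (standard error 0.18, unadjusted p = 0.771) for the myelin gene Mbp, whose sign turned with the term for libraries 16 to 18. In bulk tissue, fewer cells of a type and less RNA per cell cannot be told apart. Of the markers of regions next to the hippocampus, a larger share was lower at the criterion than the 4.16% of all genes. None of them was higher at it, and none had an adjusted p under 0.05. Of 7 cortex markers 2 were lower, Tshz2 at -0.89 (unadjusted p = 0.0153) among them, with a list median of -0.41. Their summed CPM was 143 to 157 in IS, 141 to 170.3 in ISch, 153 to 174 in ID and 138 to 141 in IDch. Of 7 thalamus and habenula markers 2 were lower, Slc17a6 at -0.74 (unadjusted p = 0.00906) and Prkcd at -0.47 (unadjusted p = 0.0333), and their summed CPM was 75.9 to 99.3 in IS, 74.6 to 97.5 in ISch, 104 to 114 in ID and 83.01 to 89.3 in IDch. The ID libraries were above all others. Of 9 striatum markers 2 were lower, Drd1 at -0.67 (unadjusted p = 0.00989) among them. The part of neighbouring tissue in the interaction of neuronal genes was not tested.

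The counts of these marker lists stand beside 4.16% lower and 3.17% higher of all genes, and 7.82% and 4.95% with the term. Of 7 excitatory neuron markers 2 were lower, Tbr1 among them. Of 6 CA1 markers 1 was lower, with a median of -0.33 and of -0.15 with the term. Their summed CPM was 782 to 1104 in IS, 821 to 1141 in ISch, 901 to 964 in ID and 549 to 1203 in IDch, and within IDch the mean of libraries 16 to 18 was 675 against 1203 in replicate 4. None of 7 CA2 and CA3 or 7 dentate gyrus markers met the criterion. Of 4 ependyma markers 2 were higher, Dynlrb2 at 1.15 (unadjusted p = 0.006805) and Ccdc153 at 0.72 (unadjusted p = 0.03596), with a list median of 0.55 and of 1.02 with the term. The groups of Dynlrb2 overlapped, with CPM values of 2.88, 2.32, 3.04 and 2.23 in IS, 1.08, 2.23, 2.55 and 1.73 in ISch, 1.95, 1.57, 2.69 and 1.69 in ID and 2.47, 3.196, 2.39 and 4.58 in IDch. Of 11 astrocyte markers only Sox9 met the criterion, lower at -0.36 (unadjusted p = 0.0432), with a list median of 0.0019. Of 13 oligodendrocyte markers only Ermn did, higher at 0.27 (unadjusted p = 0.02503), with a list median of -0.012. Of 8 oligodendrocyte precursor markers only Cspg4 was lower, at -0.22 (unadjusted p = 0.0394), with a list median of -0.11. Of 9 interneuron markers only Slc32a1, the vesicular GABA transporter, was lower, at -0.27 (unadjusted p = 0.00918), with a list median of -0.15. A single member does not set lists of this size apart from the shares of all genes. Sox9 left the criterion without IS replicates 3 or 4, ISch replicates 2 or 4, ID replicates 3 or 4 or IDch replicates 1 or 2, with the term, without the 4 libraries numbered 16 to 18, with library size alone, or with the replicate number as a block. Ermn left it without IS replicate 3, ISch replicate 3, ID replicate 1 or IDch replicate 2, or without the 4 libraries numbered 16 to 18. Cspg4 left it without IS replicates 1 or 3, ISch replicates 1 or 3, ID replicates 2 or 3 or IDch replicates 3 or 4, with library size alone, or with the replicate number as a block. With the term Tshz2 left it too. The microglia, endothelial and mural, meninges and fibroblast, choroid plexus and blood lists had none. With the term 3 endothelial and mural markers were lower, where 7.82% of all genes were lower. Prkcd left the criterion without IS replicate 2, ISch replicates 3 or 4, ID replicates 1, 3 or 4 or IDch replicates 1 or 2, with the term, or without the 4 libraries numbered 16 to 18 and Ccdc153 without IS replicates 1 or 3, ISch replicate 1, ID replicates 3 or 4 or IDch replicates 1 or 4. Tbr1 and Dynlrb2 kept it in all 27 alternatives, and Tshz2, Slc17a6 and Drd1 whichever single library was left out. Without the 4 libraries numbered 16 to 18 together, Tshz2, Slc17a6 and Drd1 left it. Without IDch replicate 4, 5 of the 6 CA1 markers were lower, beside 792 of 15118 genes. In that fit IDch holds only libraries of the set numbered 16 to 18.

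**Figure D5:**
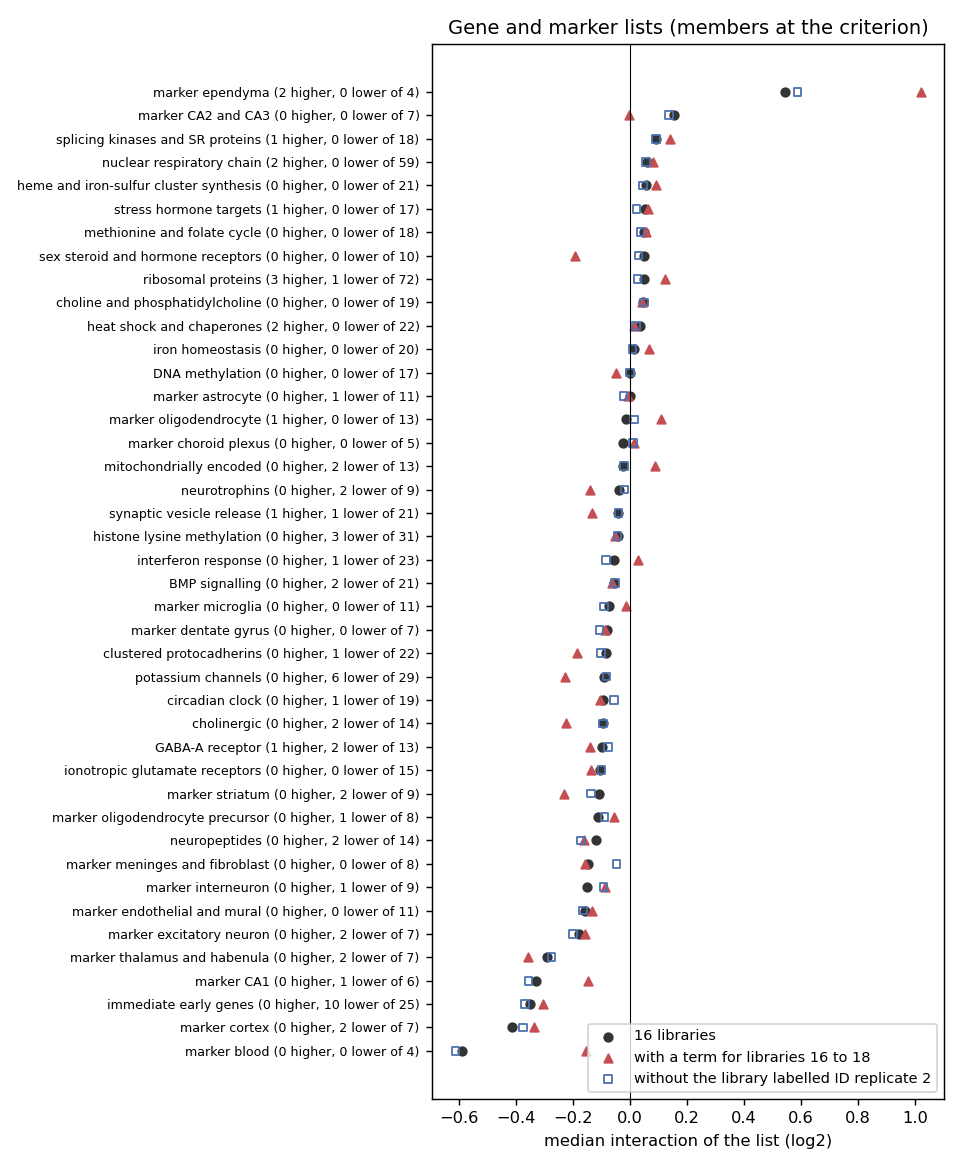
Median interaction (log2, horizontal) of 42 gene and marker lists, with the number of members higher and lower at the criterion and the number tested beside each name. Points are the fit of 16 libraries, triangles the fit with a term for libraries 16 to 18 and squares the fit without the library labelled ID replicate 2. Immediate early genes have 10 of 25 lower, and among the marker lists the ependyma, blood and CA1 medians moved furthest with the term.

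The largest interactions at the criterion belonged to genes with few counts or with copies, and single libraries carried several. Rplp2, a ribosomal protein gene that overlaps Snora52, had CPM values of 10.2, 20.2, 0.572 and 0.546 in IS, 0.881, 1.36, 1.01 and 2.52 in ISch, 1.095, 1.15, 1.26 and 0.967 in ID and 1.49, 2.14, 23.1 and 1.62 in IDch and an interaction of 5.097 (standard error 1.48, unadjusted p = 0.00315). High values stood in IS replicates 1 and 2 and IDch replicate 3 alone. Pomc, the precursor of pituitary and hypothalamic peptides, which overlaps Efr3b, had CPM values of 0.909, 0.734, 121 and 2.56 in IS, 0.734, 0.816, 0.583 and 1.78 in ISch, 1.18, 1.098, 1.47 and 1.29 in ID and 1.26, 0.752, 0.931 and 0.926 in IDch and an interaction of 4.603 (standard error 2.07, unadjusted p = 0.0398). Without IS replicate 3 the interaction was 0.14 (unadjusted p = 0.817), and Pomc left the criterion in 18 of 27 alternatives. Hprt1, a purine salvage gene whose entry was near 1 CPM in most libraries, had CPM values of 0.354, 0.734, 0.792 and 0.378 in IS, 0.489, 0.381, 15.4 and 3.31 in ISch, 8.19, 2.09, 1 and 0.282 in ID and 0.314, 0.639, 0.576 and 0.278 in IDch and an interaction of -5.76 (standard error 1.47, unadjusted p = 0.00114). Its values stood out in ISch replicates 3 and 4 and in ID replicates 1 and 2. A2m, a protease inhibitor of plasma, had CPM values of 3.59, 1.51, 2.99 and 0.714 in IS, 2.105, 2.28, 2.39 and 3.75 in ISch, 1.83, 0.157, 1.16 and 0.604 in ID and 6.16, 3.87, 2.39 and 2.96 in IDch and an interaction of 1.74 (standard error 0.71, unadjusted p = 0.0248), with its lowest value in the library labelled ID replicate 2. It left the criterion without IS replicates 1 or 3, ID replicate 4 or IDch replicate 1, or without the 4 libraries numbered 16 to 18. The second Rps27a entry (ENSRNOG00000034246) had CPM values of 15.5, 27.8, 24.8 and 16.3 in IS, 22.4, 64.4, 20.7 and 51.1 in ISch, 78.99, 57.8, 82.7 and 72.5 in ID and 16.2, 45.2, 34.4 and 18.6 in IDch and an interaction of -2.25 (standard error 0.49, unadjusted p = 0.000285). The pseudogene Ybx1-ps3 had CPM values of 3.49, 3.4, 4.36 and 2.44 in IS, 0.979, 3.54, 3.13 and 3.902 in ISch, 4.91, 4.92, 4.32 and 5.601 in ID and 0.863, 1.13, 1.42 and 1.204 in IDch and an interaction of -1.85 (standard error 0.42, unadjusted p = 0.000363). In both, all ID libraries were above all IDch libraries. Reads of Rplp2, Rps27a, Hprt1 and Ybx1-ps3 could be split with near-identical copies, so these values are uncertain.

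The same contrast was available in males of batch I, and the difference of both interactions was tested over all 32 libraries and 15520 genes. By edgeR's quasi-likelihood test 4 genes differed with an adjusted p under 0.05 (0.0258%), and 1935 met the criterion (12.5%). These were Slc9a4 with a difference of 1.02 (standard error 0.15, adjusted p = 0.00253), AABR07001512.1 with -5.67 (standard error 0.97, adjusted p = 0.0152), Prrt1 with -0.57 (standard error 0.11, adjusted p = 0.04202) and Trappc2 with 0.62 (standard error 0.12, adjusted p = 0.04202). Slc9a4 had an interaction of 0.53 in batch II and -0.50 in batch I. Trappc2, a subunit of a vesicle tethering complex that overlaps Ofd1 and Rab9a, had 0.23 and -0.38. Prrt1, an AMPA receptor-associated membrane protein that overlaps Ppt2, had -0.21 and 0.36. AABR07001512.1 had -3.98 and 1.76. The count was 2 without the library labelled ID replicate 2. Over the 25 immediate early genes the median interaction in batch I was 0.22, with 1 higher and 1 lower at the criterion, where 14.7% of genes met it. RNA was isolated with another kit in batch I. Its libraries held 3515806 to 9517503 counts (median 8007907), against 18439999 to 26616318 (median 21747536.5) in batch II. Sex, sequencing batch, isolation kit and depth cannot be told apart.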

How the data were processed

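RNA-seq counts of female rat hippocampus were analysed. Per the labels' processing notes and the study's methods, reads were checked with FastQC, trimmed with Trimmomatic, aligned to Rnor_6.0 with HISAT2 and counted with featureCounts of Subread, and the authors deposited raw counts per gene. RNA came from RNeasy Midi columns and libraries from the TruSeq RNA v2 kit. Strand setting, treatment of reads that match several genes and annotation version are not given in the sources used here. Counts of overlapping genes, and of the 2637 entries that repeat a symbol, are therefore uncertain.

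Depth was 18439999 to 26616318 counts per library. Counts of 16 libraries were fitted in R 4.3.3 with edgeR 4.0.16 (TMM, filterByExpr with a minimum count of 10 and total of 15, glmQLFit and glmQLFTest, 1 coefficient per diet), and adjusted by Benjamini-Hochberg over 14975 genes. Batch I entered only the test between batches. Alternatives were edgeR's likelihood ratio test, DESeq2 1.42.0, limma 3.58.1 with voom, RLE factors, library size alone, 2 other filters, the replicate number as a block and each library left out. A term for libraries 16 to 18, their omission, and that term without the library labelled ID replicate 2 were added after seeing the data. The fits were tested on simulated counts. Named genes were the 15 with a symbol and the smallest p, the 3 largest in each direction at the criterion with at least 1 log2 CPM on average, the 2 with the smallest p at the criterion in each list, and 9 fixed genes; immediate early genes, AABR07001512.1, the genes that differ between batches and further members of the lists were named after their values were seen. Results of some of these genes are not reported here. Members and lists were chosen with earlier results of these data known. RefSeq (GRCr8) matched 76 of 80 named genes, 21 of which overlap another gene, and no position of it is given for them beyond the promoters shown.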

Additional observations from a re-analysis of the deposited data

Results flagged for a closer look

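In groups of 4 libraries, a library was far from its group where its gap to the nearest other library, as a share of the group's range, passed Dixon's critical value at 95%. This held for 18 of 304 groups over 76 of the named genes (5.92%), and chance gives about 1 in 20. The library was the highest for Cic in IDch replicate 3 (176 against 164 to 166 CPM, gap 0.853), Clip2 in IDch replicate 3 (199 against 183 to 186 CPM, gap 0.854), Sema5b in ISch replicate 4 (13.7 against 10.3 to 10.7 CPM, gap 0.887), Rplp2 in IDch replicate 3 (23.1 against 1.49 to 2.14 CPM, gap 0.9698), Pomc in IS replicate 3 (121 against 0.734 to 2.56 CPM, gap 0.985), A2m in ISch replicate 4 (3.75 against 2.105 to 2.39 CPM, gap 0.8294), Bdnf in ISch replicate 4 (65.7 against 53.2 to 54.1 CPM, gap 0.925), Slc17a6 in IS replicate 3 (21.8 against 12.4 to 12.98 CPM, gap 0.941), Fos in IS replicate 3 (23.9 against 9.04 to 11.2 CPM, gap 0.855), Nr4a3 in ID replicate 4 (100.3 against 79.96 to 80.7 CPM, gap 0.964), Homer1 in ID replicate 4 (77.3 against 60.03 to 61.97 CPM, gap 0.888) and Prrt1 in IS replicate 1 (228 against 211 to 214 CPM, gap 0.843). It was the lowest for Dab2ip in IS replicate 3 (102 against 109 to 111 CPM, gap 0.833), Chrm3 in ID replicate 3 (83.4 against 88.5 to 89.5 CPM, gap 0.8298), Ehmt2 in IS replicate 2 (196 against 209 to 210.4 CPM, gap 0.913), Tsc22d3 in ID replicate 4 (47.9 against 55.9 to 57.2 CPM, gap 0.869), RT1-A2 in ISch replicate 1 (3.96 against 15.6 to 16.8 CPM, gap 0.909) and Acvr1 in ISch replicate 2 (57.1 against 58.8 to 59.1 CPM, gap 0.854). Pomc, Homer1, Ehmt2 and Tsc22d3 left the criterion without the library that stood out.

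The interaction of AABR07001512.1 had an adjusted p under 0.05 by edgeR's quasi-likelihood test, at -3.98 log2. Its IDch libraries held very few counts, and over 27 alternatives the adjusted p reached 0.172. By the same edgeR test without the library labelled ID replicate 2, the adjusted p was 0.0843. The interactions of batch II and batch I differed by -0.57 for Prrt1, 1.02 for Slc9a4, -5.67 for AABR07001512.1 and 0.62 for Trappc2, with adjusted p-values of 0.04202, 0.00253, 0.0152 and 0.04202. Sex, batch, RNA isolation and depth cannot be told apart in this difference.

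In the library labelled ID replicate 2, Eif2s3y was at 15.4 CPM and Kdm5d at 9.75 CPM, with 0 counts of either in the other 15 libraries labelled female. In the libraries labelled male, Eif2s3y was at 64.9 to 84.7 CPM, Kdm5d at 48.7 to 60.7 CPM and Eif2s3 at 105 to 136 CPM. The source of these counts was not tested.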

How the results depend on the processing

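Without 1 library at a time, 901 to 1330 genes met the criterion for the interaction and 0 to 25 had an adjusted p under 0.05: 25 without IDch replicate 4, 5 without ISch replicate 1, 3 without IS replicate 3 or ISch replicate 3, 2 without IS replicate 2 or IDch replicate 3, and none without IS replicate 4, ISch replicate 4, ID replicates 1, 2 or 4 or IDch replicates 1 or 2. That second count was 49 with the likelihood ratio test, 57 with DESeq2 and 0 with the replicate block. Without IDch replicate 4, all libraries left in IDch are of the set numbered 16 to 18, so diet and set cannot be told apart within IDch. With the term for libraries 16 to 18, without those 4 libraries, and with the term but without the library labelled ID replicate 2, the interaction counts were 1913, 2538 and 1748 at the criterion and 9, 133 and 0 with an adjusted p under 0.05. The choline effect in ID then reached 3674, 3871 and 3457 genes in place of 1963, and the iron effect with choline 1608, 2564 and 1581 in place of 907. Without those 4 libraries IDch holds 1 library, assumed to vary like the other groups. The count between batches, 4, was 75 with the likelihood ratio test, 7 with RLE factors, 2 with all genes of at least 1 count and 1 to 33 without 1 library, with 33 without female IDch replicate 4, 29 without male IDch replicate 2, 17 without female ISch replicate 1, 9 to 11 without female IS replicate 4, female ISch replicate 3, male IS replicate 1 or male ID replicate 3, 1 without male IDch replicate 1, and 2 without female ISch replicate 4, female ID replicates 2 or 3, female IDch replicate 3, male IS replicate 4, male ISch replicates 1, 2 or 3, male ID replicate 4 or male IDch replicate 4. In the same 3 fits with the term or without those libraries, the sign turned for Slc5a7 (-0.15, -0.11, -0.14), Mbp (0.19, 0.15, 0.20) and Fth1 (0.033, 0.000757, 0.0024). Without those libraries alone it turned for Adcyap1 (0.062), Cck (0.0037) and Slc17a7 (-0.067), and with library size alone for Tfrc (0.011). With 1 library left out, Tfrc lay between -0.062 and 0.033 and Mbp between -0.18 and 0.048. Causes were not tested. Replicate numbers did not pair the libraries: over 24 pairs r was -0.126 to 0.152, 1 pair passed 0.1, and 5 of 16 libraries correlated best with their own number. With the replicate block, 1059 genes met the criterion. Chi-square per gene between replicates was 4.23 to 25.2, so no pair agreed within counting noise.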
